A study of Homo sapiens with 4 samples.

Results

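Where neighbouring protein-coding genes end within 1000 bp of each other, the short stretch between them can serve both genes. In head-to-head pairs the genes are transcribed away from each other and the stretch is a shared, bidirectional promoter, as a rule rich in CpG and kept free of nucleosomes. In tail-to-tail pairs the genes are transcribed towards each other, and in head-to-tail pairs a gene starts just behind its neighbour. Phosphorylated histone H2A.X (γH2AX) is the mark that kinases of the DNA damage response lay on nucleosomes around double-strand breaks, and active gene starts are among the places where breaks arise without any drug.

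The paired ends were found from the extents of coding genes in the RefSeq annotation of hg38 on chromosomes 1 to 22. A pair was kept when 1 to 1000 bases lay between the nearest annotated ends of non-overlapping neighbours, and its window was that gap plus 500 bp on either side. This gave 2065 windows of 35500 windows at coding gene ends, with a median gap of 266 bp and widths of up to 1997 bp. The remaining 33435 windows, each 1266 bp wide (the median width of the paired windows) and centred on any other coding gene end, served for comparison. Of the paired windows 14 overlapped another paired window, so a few share a peak, and 47 had a gap crossed by another coding gene. The rule used gene positions and no measured value.

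γH2AX was mapped by chromatin immunoprecipitation and sequencing in SK-UT1, an established line grown from leiomyosarcoma of the uterus, a cancer of smooth muscle. The 4 libraries came from cells given 0.1% DMSO as vehicle control, 1 µM of the SUV39H2 inhibitor OTS186935 (SUV39H2 methylates lysine 9 of histone H3), 0.5 µM doxorubicin, which traps topoisomerase II on DNA, or OTS186935 and doxorubicin together at these doses (the combination). All were 1 cell line with 1 library per condition, the time on drug is not given in the sources used here, and no input library was used here. There are therefore no replicates and no test between conditions, and the exact 95% binomial (Clopper-Pearson) intervals in brackets cover counting error only. The peak lists held 74124 rows on these chromosomes with DMSO, 59671 with OTS186935, 46725 with doxorubicin and 28407 under the combination, so shares from the treated lists start from fewer peaks. A peak's −log10 q (the authors' false discovery measure) and its summit, the number of fragments stacked at its highest point, describe that peak within its own list.

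Gap sequences of 9 pairs are shown, chosen to cover the peak patterns described below. The first 5 had a peak in all 4 lists and belong to the 8 such windows whose weakest peak was the strongest. APTX/DNAJA1 is a DNA repair pair with peaks in all 4 lists. The histone pair H2BC13/H2AC13 had peaks with DMSO and the combination, and MRPS27/PTCD2 and LRRC41/UQCRH, pairs of mitochondrial genes with their neighbours, had a peak with DMSO alone. Each sequence holds only the bases between the annotated ends, from RefSeq (GRCh38.p14), 5′ to 3′ on the strand of the gene named, and capitals mark matches on either strand to 5 motifs: the ETS core spelled CCGGAAG, the letters TGCGCA from the NRF1 motif, the CCAAT box, the SP1 motif spelled GGGCGG, and the TATA box spelled TATAAA.
SLC1A6/TEKTL1 (chr19:15010644-15010725, minus strand, towards SLC1A6): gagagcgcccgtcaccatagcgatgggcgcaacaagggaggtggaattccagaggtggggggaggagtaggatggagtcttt
GON4L/SYT11 (chr1:155859432-155859566, minus strand, towards GON4L): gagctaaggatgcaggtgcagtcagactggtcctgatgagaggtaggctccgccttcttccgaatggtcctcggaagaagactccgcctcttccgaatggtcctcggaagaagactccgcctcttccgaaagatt
CIDEB/LTB4R (chr14:24311436-24311501, minus strand, towards CIDEB): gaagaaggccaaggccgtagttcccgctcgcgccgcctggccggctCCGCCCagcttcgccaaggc
ZKSCAN4/NKAPL (chr6:28259212-28259296, minus strand, towards ZKSCAN4): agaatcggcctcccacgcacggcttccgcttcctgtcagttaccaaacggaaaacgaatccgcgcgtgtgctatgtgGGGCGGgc
CKLF/CMTM1 (chr16:66566288-66566438, plus strand, towards CMTM1): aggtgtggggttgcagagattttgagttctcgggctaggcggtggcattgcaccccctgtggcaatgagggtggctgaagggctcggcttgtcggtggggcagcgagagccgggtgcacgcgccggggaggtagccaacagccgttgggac
APTX/DNAJA1 (chr9:33025121-33025272, minus strand, towards APTX): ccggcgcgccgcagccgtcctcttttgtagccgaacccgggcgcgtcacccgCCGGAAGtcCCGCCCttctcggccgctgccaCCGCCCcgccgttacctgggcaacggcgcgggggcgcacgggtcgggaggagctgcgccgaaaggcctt
H2BC13/H2AC13 (chr6:27807930-27808172, minus strand, towards H2BC13): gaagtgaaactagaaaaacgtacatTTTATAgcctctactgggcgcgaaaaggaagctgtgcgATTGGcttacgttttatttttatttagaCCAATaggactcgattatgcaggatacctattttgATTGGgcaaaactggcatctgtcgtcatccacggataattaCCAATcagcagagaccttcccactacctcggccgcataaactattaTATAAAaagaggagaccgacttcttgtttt
MRPS27/PTCD2 (chr5:72320241-72320372, minus strand, towards MRPS27): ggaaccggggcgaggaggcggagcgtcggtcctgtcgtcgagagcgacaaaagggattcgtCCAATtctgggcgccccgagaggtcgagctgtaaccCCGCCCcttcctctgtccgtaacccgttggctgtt
LRRC41/UQCRH (chr1:46303617-46303697, minus strand, towards LRRC41): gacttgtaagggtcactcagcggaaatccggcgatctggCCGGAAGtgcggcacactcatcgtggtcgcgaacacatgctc

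The first 5 gaps carried 0 or 1 SP1 match and no match to the other motifs. The gap of APTX/DNAJA1 carried 2 SP1 matches and 1 ETS core, and the histone gap 4 CCAAT and 2 TATA matches, elements known from replication-dependent histone promoters. A match is a run of letters and does not show that a factor is bound there.

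Paired windows as a whole held peaks slightly more often than other gene ends with DMSO, about as often with OTS186935, and less often with doxorubicin and the combination, where the intervals of the 2 classes did not overlap. With DMSO 405 of 2065 windows, 19.6% (17.9 to 21.4), had a peak, against 17.5% of other gene ends. With OTS186935 the count was 243, or 11.8% (10.4 to 13.2), against 12.4%. Doxorubicin gave 149 windows, or 7.22% (6.14 to 8.42), against 9.13%, and the combination 98 windows, or 4.75% (3.87 to 5.75), against 6.12%. Relative to other ends the paired share was thus 1.12 times as large in DMSO and 0.947, 0.79 and 0.775 times as large in the 3 treated lists. With all windows set to 1000 bp the DMSO ratio was 0.987. Strong peaks, with a −log10 q reaching 5, were found at 76 paired windows with DMSO, 32 with OTS186935, 13 with doxorubicin and 3 under the combination. The shares of other gene ends with such a peak were 4.57%, 2.55%, 1.09% and 0.488%, and the DMSO ratio for strong peaks was 0.806. In all, 535 paired windows, 25.9%, had a peak in at least 1 list, against 23.7% of other ends, and 1530 had none.

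The pooled share mixed pair types that differed. The strand of both genes was known for 762 head-to-head, 391 head-to-tail and 340 tail-to-tail pairs, and 572 pairs had no strand for at least 1 gene. Head-to-head windows had a peak in 23% (20 to 26.1) with DMSO, against 25.9% (25.1 to 26.6) of 12836 other 5′ ends. The counts in these windows were 175 of 762 with DMSO, 86 with OTS186935, 52 with doxorubicin and 35 under the combination.

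Under the drugs the head-to-head share lay well below that of other gene starts. With OTS186935 it was 11.3% (9.13 to 13.7) against 17.4% (16.7 to 18.1). With doxorubicin it was 6.82% (5.14 to 8.85) against 12.6% (12 to 13.1), and with the combination 4.59% (3.22 to 6.33) against 9.04% (8.55 to 9.55). The intervals of the 2 classes did not overlap in any treated list and did overlap in DMSO. A head-to-head window holds a pair of annotated gene starts and each of the other windows was centred on 1.

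List length bears on the size of that gap. When each list was cut to its strongest 28407 rows by −log10 p, the head-to-head share was 6.43% (4.79 to 8.41) with DMSO against 9.71% (9.21 to 10.2), 4.86% (3.44 to 6.63) with OTS186935 against 8.99%, 4.86% with doxorubicin against 8.33%, and 4.59% under the combination against 9.04%. Expressed as a ratio to other 5′ ends, the 4 libraries then lay at 0.662, 0.54, 0.583 and 0.508. The head-to-head share was lower than that of other 5′ ends in all 4 lists at equal length, DMSO included, and the DMSO ratio was lower there than the 0.888 of the full list.

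Tail-to-tail pairs went the other way. Of these windows 14.4% (10.9 to 18.6) had a peak with DMSO, against 9.22% (8.74 to 9.71) of 13628 other 3′ ends. The shares with OTS186935 were 9.41% (6.53 to 13) and 7.37%, with doxorubicin 8.24% (5.54 to 11.7) and 5.44%, and with the combination 5.29% (3.17 to 8.24) and 3.35%. The intervals of tail-to-tail and other 3′ ends did not overlap with DMSO and overlapped with OTS186935, doxorubicin and the combination. A tail-to-tail window holds a pair of 3′ ends and had a median width of 1382 bp, and how much of the difference belongs to this was not tested. Head-to-tail windows, which hold a start and an end, had peaks in 18.4% with DMSO, 11.8% with OTS186935, 7.42% with doxorubicin and 5.12% under the combination.

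**Figure D1:**
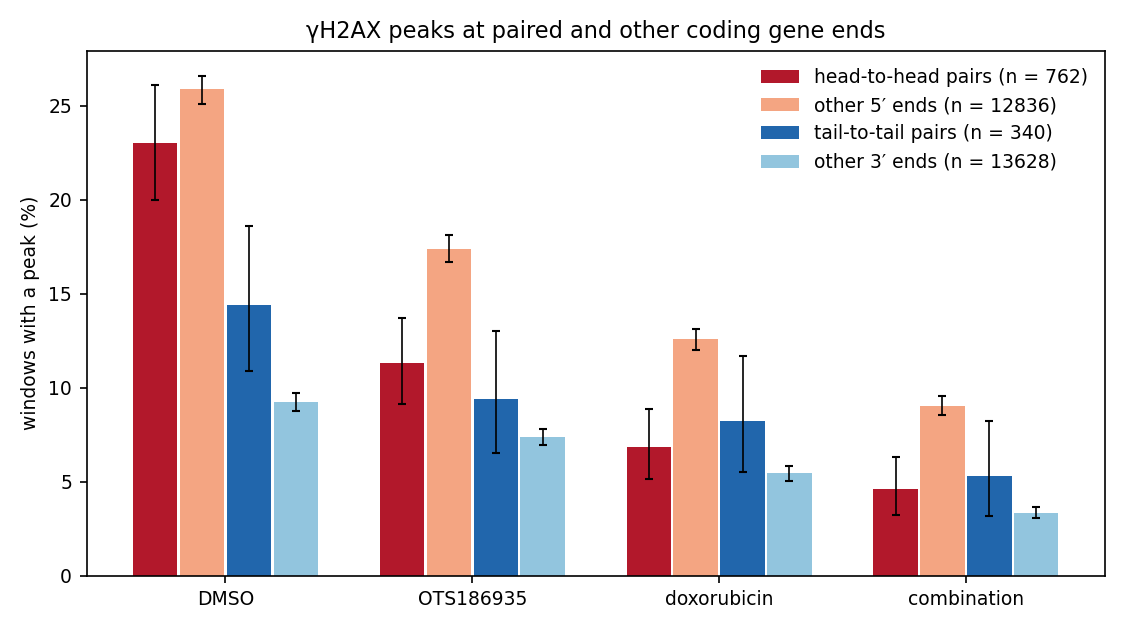
Percent of windows with a γH2AX peak (vertical axis) in each library (horizontal axis) at head-to-head pairs, other 5′ ends, tail-to-tail pairs and other 3′ ends. Bars are shares and black lines are exact 95% binomial intervals. Head-to-head pairs stood at 23% against 25.9% of other 5′ ends with DMSO and at 4.59% against 9.04% with the combination, while tail-to-tail pairs stood above other 3′ ends in each library.

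With DMSO, peaks at head-to-head pairs lay beside the gap and seldom in it. The median gap of these pairs was 170 bp and their median window 1170 bp, so the gap is a small part of a window. Of the 175 windows with a DMSO peak, the summit of the strongest peak lay in the gap in 7 (4%), in the 500 bp flanks in 124 and outside the window in 44, and the peak reached over both gene starts in 28 (16%). With OTS186935 the summit lay in the gap in 10 of 86, with doxorubicin in 3 of 52 and with the combination in 2 of 35. It lay in the flanks in 53, 35 and 25 of these. The summits thus stood mostly inside the genes next to the gap, which also make up most of a typical window.

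Measured from each annotated start into its gene, the DMSO summits of head-to-head genes gathered in a narrow band. Between 0 and 250 bp there were 27.6 summits per 1000 starts (exact Poisson 95% interval 19.9 to 37.3), against 64.6 (60.3 to 69.1) at other 5′ ends. Between 250 and 500 bp there were 57.7 (46.3 to 71.1) against 68.1 (63.6 to 72.8), and between 500 and 750 bp 25.6 (18.2 to 35) against 49.5 (45.7 to 53.5). The band at 250 to 500 bp was therefore the only 1 of these 3 bins in which the DMSO intervals of the 2 classes overlapped.

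That bin, the highest of the head-to-head profile with DMSO, was lower in the treated lists for both classes. The treated lists are shorter, and no profile from lists of equal length is given here. In the same 250 to 500 bp bin OTS186935 gave 21.7 (14.9 to 30.4) against 43.7 (40.2 to 47.5), doxorubicin 12.5 (7.51 to 19.5) against 30.4 (27.4 to 33.6), and the combination 5.25 (2.27 to 10.3) against 20 (17.6 to 22.6). The head-to-head counts behind these were 88 summits for DMSO, 33 for OTS186935, 19 for doxorubicin and 8 for the combination. Between 0 and 250 bp OTS186935 gave 14.4 (9.05 to 21.9) against 41.3 (37.8 to 45), and doxorubicin 10.5 (6 to 17) against 31.6 (28.6 to 34.8). The combination gave 11.2 (6.5 to 17.9) against 22 (19.5 to 24.7) there, on 17 head-to-head summits, more than the 8 of the band. Between 750 and 1000 bp the DMSO values were still apart, at 18.4 (12.2 to 26.6) against 36.9 (33.7 to 40.4). From 2000 to 2250 bp the classes were closer, with 11.8 and 14.6 summits per 1000 starts with DMSO and 7.87 and 12.5 with OTS186935. Doxorubicin gave 6.56 and 9.11 there, and the combination 5.25 and 5.53. In that bin the intervals overlapped in each library.

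**Figure D2:**
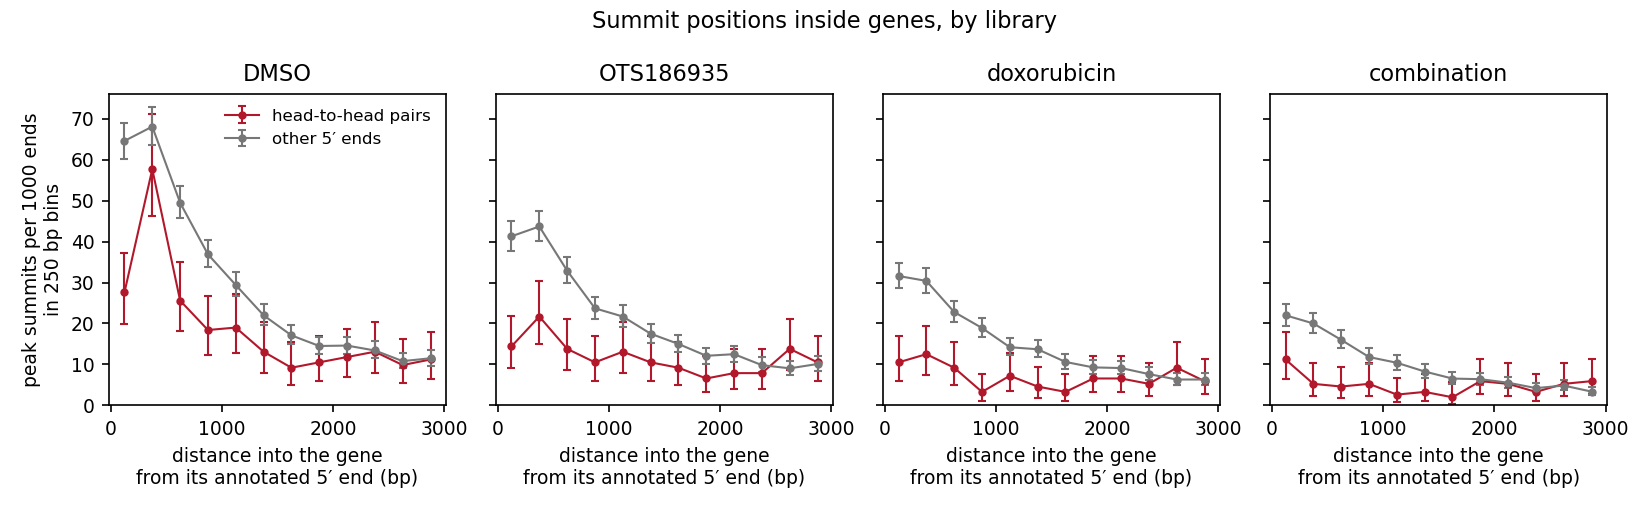
Peak summits per 1000 annotated gene starts (vertical axis) in 250 bp bins by distance into the gene (horizontal axis), 1 panel per library, for head-to-head genes (red) and other 5′ ends (grey). Vertical lines are exact 95% Poisson intervals. With DMSO the red line reaches 57.7 at 250 to 500 bp, near the grey 68.1, while with the combination it is 5.25 against 20. At 0 to 250 bp the red line is at 27.6 against 64.6 with DMSO and at 11.2 against 22 with the combination.

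Fewer of the head-to-head windows with a DMSO peak also had a peak under a drug. The 3 shares use the same DMSO list. Among other 5′ ends with a DMSO peak, 49.2% also had a peak with OTS186935, 37.3% with doxorubicin and 28% under the combination. At head-to-head windows the counts were 52 of 175 with OTS186935, or 29.7% (23.1 to 37.1), 40 with doxorubicin, or 22.9% (16.9 to 29.8), and 28 under the combination, or 16% (10.9 to 22.3). A DMSO peak with none in any treated list was found at 102 of 175 head-to-head windows, 58.3% (50.6 to 65.7), and at 38.6% (37 to 40.3) of other 5′ ends with a DMSO peak.

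Over all pair types 40.2% (35.4 to 45.2) of 405 DMSO windows also had a peak with OTS186935, 25.9% (21.7 to 30.5) with doxorubicin and 18.3% (14.6 to 22.4) under the combination. The same shares at other gene ends were 49.6%, 38.1% and 26.8%. Tail-to-tail windows stood at 46.9% (32.5 to 61.7), 32.7% and 28.6%, close to the 49.1%, 37.6% and 25.2% of other 3′ ends.

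DMSO peaks at head-to-head pairs were also weaker, with a median −log10 q of 3.06 against 3.51 at other 5′ ends, and a strong peak at 16% against 24.6% of the windows with a peak. Among DMSO peaks with a −log10 q of 3 to 5, 19 of 61 head-to-head windows, 31.1% (19.9 to 44.3), also had a peak with OTS186935, against 52.2% (49.3 to 55.2). Among those reaching 5 the shares were 71.4% (51.3 to 86.8) and 76.1% (73 to 79). With doxorubicin the shares were 26.2% (15.8 to 39.1) and 38.7% (35.9 to 41.6) at 3 to 5. With the combination they were 21.3% and 28.8% at 3 to 5, and 42.9% (24.5 to 62.8) and 52.3% (48.8 to 55.8) at 5 or more. The head-to-head share was the lower in each class of DMSO peaks and each treated list. Taken list by list, the intervals were apart only with OTS186935 at 3 to 5. No treated list had a peak at 85.7% (71.5 to 94.6) of head-to-head windows at 1 to 2, against 63% (59.3 to 66.6). These shares were 70.5% (54.8 to 83.2) and 50.2% (46.3 to 54) at 2 to 3. At 3 to 5 they were 52.5% (39.3 to 65.4) and 34.1% (31.4 to 37), with intervals apart up to there. At 5 or more the order was the opposite, at 10.7% (2.27 to 28.2) and 14.5% (12.1 to 17.1). With lists of equal length 19 of 49 head-to-head windows, 38.8% (25.2 to 53.8), also had a peak with OTS186935, against 51.3%, 38.8% with doxorubicin against 46.4%, and 36.7% (23.4 to 51.7) under the combination against 46.4%. These intervals hold the values of the other 5′ ends, so a lower share was not detectable once the lists were equally long.

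**Figure D3:**
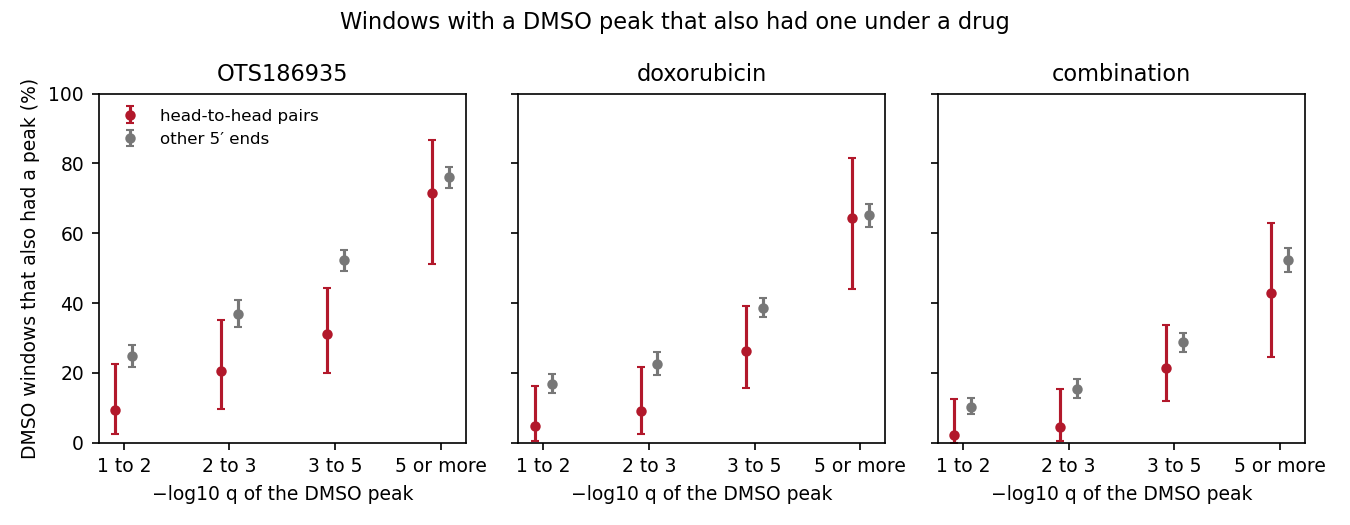
Percent of windows with a DMSO peak that also had a peak in a treated list (vertical axis), by the −log10 q of the DMSO peak (horizontal axis), 1 panel per treated library. Points are shares for head-to-head pairs (red) and other 5′ ends (grey) with exact 95% binomial intervals. With OTS186935 the red point is at 31.1% and the grey at 52.2% for DMSO peaks of 3 to 5, and at 71.4% and 76.1% for peaks of 5 or more.

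Gap length made little difference over the whole set. With DMSO, windows with gaps of at most 100, over 100 to 250, over 250 to 500 and over 500 to 1000 bp had peaks in 19.4%, 21.7%, 19.9% and 17.3%, and with the combination in 4.3%, 4.13%, 5.24% and 5.23%, though windows with longer gaps are wider. At the edge of the rule, 21.4% (14.3 to 29.9) of 117 windows with gaps over 900 and up to 1000 bp and 21.5% (13.1 to 32.2) of 79 windows of the same make with gaps over 1000 and up to 1100 bp had a DMSO peak. These intervals cover each other almost whole. The head-to-head share with OTS186935 was 14.8% (10.1 to 20.6) at gaps of at most 100 bp. Over 100 to 250 bp it was 8.82% (6.03 to 12.4), over 250 to 500 bp 9.36% (5.44 to 14.7). Over 500 to 1000 bp it was 20% (10.4 to 33) of 55 windows. Other 5′ ends stood at 17.4% (16.7 to 18.1), so the intervals were apart only over 100 to 500 bp. With doxorubicin and the combination the head-to-head share was below that of other 5′ ends in each gap class.

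Gene-dense surroundings were commoner among the pairs. Counting coding genes within 250 kb on either side, 900 of the 2065 paired windows fell in the densest class (14 to 46 genes), as did 7271 other windows. In that class 17.2% (12.6 to 22.6) of head-to-head windows and 20.8% (19.3 to 22.3) of other 5′ ends had a DMSO peak, and with OTS186935 6.01% (3.32 to 9.88) and 15.5% (14.2 to 16.9). In the class of 8 to 13 genes the DMSO order was the opposite, with 28.2% (22.1 to 35) and 22.7% (21.2 to 24.2). The OTS186935 shares were closer in the middle classes, at 15.2% (10.5 to 21) and 17.3% for 5 to 7 genes and 13.4% (9 to 18.8) and 15% for 8 to 13 genes, with overlapping intervals. In the sparsest class they were 11.5% (6.6 to 18.3) and 20.6%. The doxorubicin shares ran 7.69%, 6.09%, 9.9% and 4.29% from the sparsest to the densest class, against 15.9%, 12.1%, 10.7% and 10.2%. Their intervals overlapped only for 8 to 13 genes, at 6.15 to 14.9 and 9.63 to 11.9. With the combination the head-to-head share was the lower in each of the 4 density classes. From the sparsest to the densest the shares were 3.85%, 3.55%, 5.45% and 5.15%, against 12%, 9.31%, 6.67% and 7%. The intervals overlapped for 8 to 13 genes, at 2.75 to 9.53 and 5.8 to 7.62. They also did for 14 to 46 genes, at 2.69 to 8.82 and 6.07 to 8.01. In the sparser classes they did not. In the outer 5 Mb of chromosomes, where 16.2% of paired and 12.3% of other windows lie, 15.3% (11.6 to 19.6) of paired and 19% of other windows had a DMSO peak.

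Head-to-head promoters also differed from others in sequence. Promoters here run from 250 bases before to 50 after the annotated start. Their median GC content was 65% over 1394 head-to-head genes and 62.3% over 11170 other 5′ ends, with 27 and 21 CpG. The ETS core was found in 30.3% of head-to-head promoters, 12.5% of other promoters and 14.8% of all 13150 promoters with a sequence. For the NRF1 letters the shares were 17.8%, 9.96% and 10.9%, for CCAAT 43.3%, 36% and 36.8%, for SP1 72.8%, 56.6% and 58.9%, and for TATA 3.8%, 11.1% and 10.1%. The promoters of a pair overlap in part and share those letters. Housekeeping genes are known for such CpG-rich promoters without a TATA box.

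At like GC content the head-to-head share was the lower of the 2 in each library and each class from 50% GC up. In the class of 60 to 70% GC, 22.2% (19.1 to 25.6) of 662 head-to-head genes had a DMSO peak in their window, against 34.2% (32.6 to 35.7) of other 5′ ends, and with the combination 4.83% (3.33 to 6.76) against 12.3% (11.3 to 13.4). At 70% GC or more the DMSO shares were 30.9% (26.3 to 35.8) and 34.6% (32.8 to 36.3), with overlapping intervals, and the doxorubicin shares 6.07% (3.89 to 8.97) and 14.2% (12.9 to 15.5). Under 50% GC, with 64 head-to-head genes, the order was the opposite with DMSO, at 20.3% (11.3 to 32.2) and 8.81%, and with the combination, at 10.9% (4.51 to 21.2) and 4.63% (3.79 to 5.59). Genes of a pair share their window and are counted once each here, so the head-to-head intervals by GC class are too narrow. Among head-to-head promoters the ETS core was present in 27.4% of those with a DMSO peak and 31.2% of those without, and SP1 in 76.6% and 71.7%. With doxorubicin the order was the opposite for both, at 36.1% and 29.8% for the ETS core and 63.9% and 73.5% for SP1. The OTS186935 shares were 21.9% and 31.3% for the ETS core and 76.2% and 72.4% for SP1, and those of the combination 22.6% and 30.6%, and 64.5% and 73.2%. No order held for either motif in all 4 libraries.

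A peak in all 4 lists was found at 38 paired windows, 1.84%, against 2.72% of other gene ends. The most prominent was SLC1A6/TEKTL1, whose gap was printed first. SLC1A6 encodes a neuronal glutamate transporter and TEKTL1 a tektin-like protein. Its −log10 q was 20.6 with DMSO, the highest of all paired windows, 10.1 with OTS186935, 6.14 with doxorubicin and 3.14 in the combination list. The summits held 32, 19, 13 and 9 fragments and lay 172 to 569 bp from the gap centre on the TEKTL1 side in each library. DMSO was highest and the combination lowest at this pair.

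GON4L/SYT11, a transcriptional regulator and a synaptotagmin of vesicle traffic, showed −log10 q values of 10.1 with DMSO, 5.59 with OTS186935, 4.13 with doxorubicin and 3.93 under the combination. The summits of 15, 11, 8 and 9 fragments all lay on the SYT11 side, 620 to 1030 bp from the gap centre. At DND1/HARS1, a germ-cell RNA-binding protein and the histidyl-tRNA synthetase, the values were 8.12, 4.74, 3.81 and 4.99 in the same order of libraries. DMSO had the highest value at both, and GON4L/SYT11 was among the 5 highest with DMSO. A pair picked as high in a list tends to lead in that list, and the DMSO list was the longest. The order of libraries at single pairs is therefore not read as a difference between conditions.

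ZKSCAN4/NKAPL had another order. ZKSCAN4 is a zinc finger gene, and the window stood at 3.7 with DMSO, 6.56 with OTS186935, 3.59 with doxorubicin and 7.71 under the combination, the highest value of any paired window in the combination list. Its summits of 6, 9, 6 and 11 fragments lay 207 to 268 bp from the gap centre, on the NKAPL side in each list. XAF1/FBXO39, whose XAF1 encodes a pro-apoptotic partner of XIAP, had its lowest value with DMSO, at 3.24, and its highest with the combination, at 4.7, with OTS186935 at 3.86 and doxorubicin at 3.48. These rest on 6 and 9 summit fragments at the ends of that range.

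CIDEB/LTB4R joins a lipid droplet gene to the leukotriene B4 receptor gene, and the overlapping LTB4R2 gene crosses its gap. Its −log10 q values were 5.2 with DMSO, 5.3 with OTS186935, 3.95 with doxorubicin and 4.86 under the combination. CKLF/CMTM1, chemokine-like genes in a head-to-tail row that a read-through gene crosses, gave 5.46, 4.68, 4.35 and 4.33. KCNAB3/TRAPPC1, a potassium channel subunit and a vesicle tethering subunit, gave 5.92, 3.66, 5.45 and 4.2. DMSO was the highest library at CKLF/CMTM1 and KCNAB3/TRAPPC1, and OTS186935 by a small margin at CIDEB/LTB4R. The next gap of the chemokine-like row, between CKLF-CMTM1 and CMTM2, had −log10 q values of 11.3 with DMSO, 3.95 with OTS186935, 8.05 with doxorubicin and 3.1 under the combination, and its doxorubicin value was the highest of the paired windows in that list.

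A DMSO peak with none in any treated list was the commonest pattern, at 195 paired windows, 9.44%, against 6.49% of other gene ends. Among the strongest were CLPSL1/CLPS, with the colipase gene (−log10 q 8.43), PGAP2/RHOG, with a small GTPase gene (7.03), TBC1D10B/MYL11, with a myosin light chain gene of skeletal muscle (6.44) and LAMTOR4/TRAPPC14, whose LAMTOR4 belongs to the Ragulator complex of lysosomes (5.99). Their summits of 15 to 19 fragments lay 918 to 1410 bp from the gap centre, outside the window in each case, so these peaks reached into the windows from their side.

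Peaks in all 3 treated lists and not in DMSO were found at 3 windows, 0.145%, against 0.153% of other gene ends. At CREBZF/CCDC89, where CREBZF encodes a leucine zipper protein, the −log10 q was 6.99 with OTS186935, 5.36 with doxorubicin and 3.11 under the combination. SLC10A4/ZAR1, with the oocyte gene ZAR1, gave 7.03, 7.34 and 1.18. Its combination peak, of 5 fragments, overlapped neither the OTS186935 nor the doxorubicin peak. The summits of those lay 1260 and 1021 bp from the gap centre, outside the window. SLC44A4/EHMT2 gave 1.97, 2.91 and 1.96 on summits of 11, 12 and 10 fragments. These lay 437 to 565 bp from the gap centre on the SLC44A4 side. None of these peaks reached EHMT2, which encodes another H3K9 methyltransferase than the target of OTS186935. The combination alone had a peak at 13 windows, 0.63%, against 0.796%. The strongest of these were CDC27/MYL4 (3.33), ZNF880/ZNF528 (3.24), H2AC14/H2BC14 (3.04), MTA2/EML3 (2.68) and, weakest of the 5, TRIP10/SH2D3A, with 7 to 11 fragments.

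**Figure D4:**
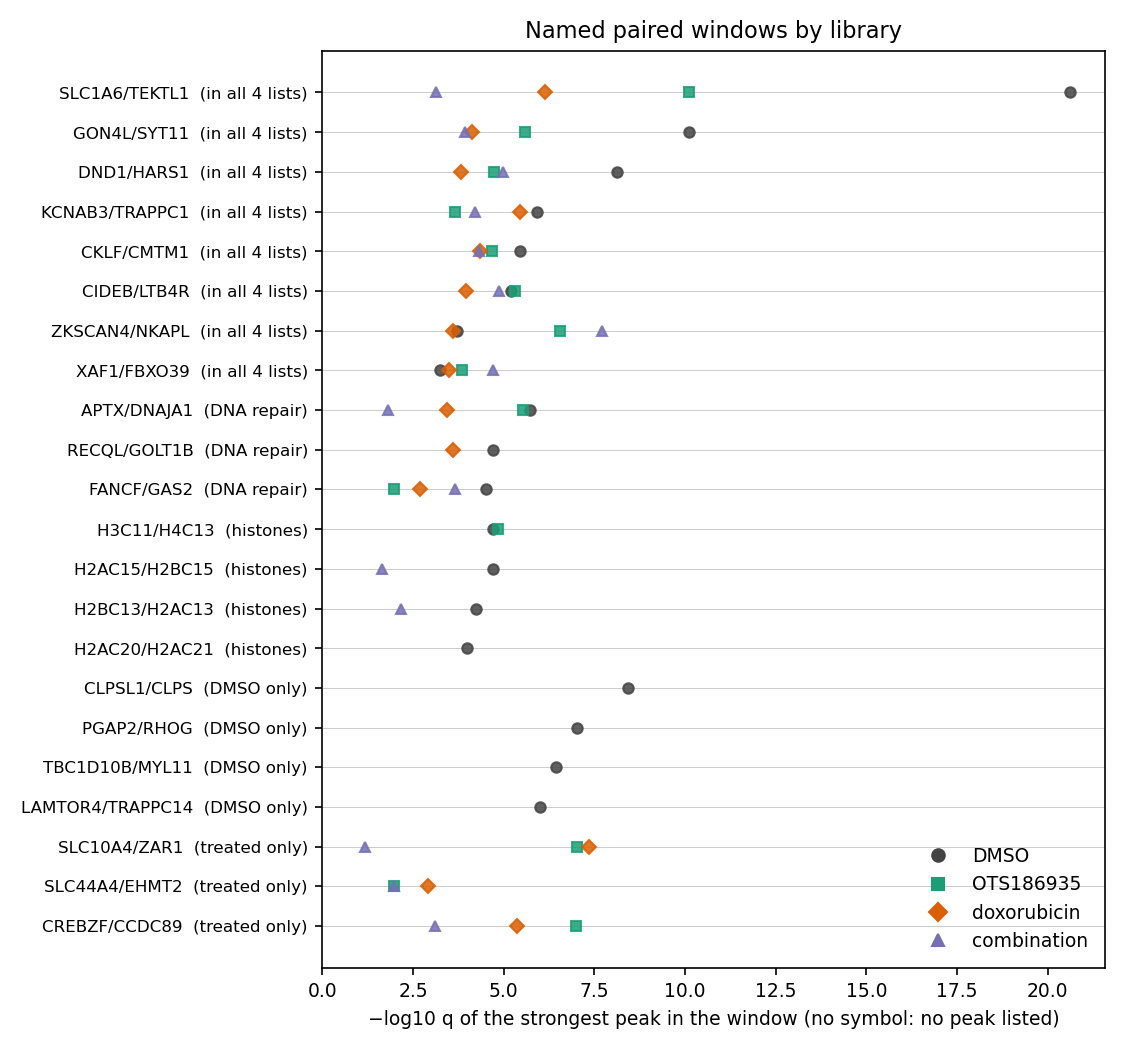
−log10 q of the strongest peak in the window (horizontal axis) for named pairs (rows) in DMSO, OTS186935, doxorubicin and the combination, with no symbol where the list had no peak. SLC1A6/TEKTL1 runs from 20.6 with DMSO to 3.14 with the combination, while ZKSCAN4/NKAPL is highest with the combination at 7.71.

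DNA repair genes are known for head-to-head promoters. Of 91 repair and damage response genes, 47 paired windows held at least 1, and 27 of these windows were head-to-head. They had peaks at 7 windows with DMSO, 14.9% (6.2 to 28.3), 4 with OTS186935, 4 with doxorubicin and 2 under the combination. The percent of paired windows in all with a peak in those lists was 19.6, 11.8, 7.22 and 4.75. Other ends of these repair genes had peaks at 9.02%, 6.77%, 6.77% and 1.5% of 133 windows. APTX/DNAJA1, where APTX encodes the enzyme that clears failed ligation ends, had −log10 q values of 5.73 with DMSO, 5.52 with OTS186935, 3.43 with doxorubicin and 1.82 under the combination. Its summits of 9, 8, 6 and 5 fragments all lay on the side of the chaperone gene DNAJA1, 254 to 635 bp from the gap centre.

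FANCF/GAS2 was the other repair pair with a peak in all 4 lists. FANCF belongs to the Fanconi anaemia core complex, and its window gave −log10 q values of 4.51, 1.97, 2.68 and 3.65, on summits of 8, 4, 5 and 7 fragments on the FANCF side. RECQL/GOLT1B, with a RecQ helicase gene, had peaks with DMSO (4.69) and doxorubicin (3.59). NPAT/ATM, where ATM encodes the kinase that phosphorylates H2AX at breaks, had no peak in any list.

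Histone genes are near-identical copies of each other, and how the authors placed reads that match several copies is not given in the sources used here, so these peaks are uncertain. Of 21 histone windows, 9 had a peak with DMSO, 42.9% (21.8 to 66), 3 with OTS186935 (14.3%), 1 with doxorubicin (4.76%) and 4 under the combination (19%). All paired windows stood at 19.6%, 11.8%, 7.22% and 4.75%. H2BC13/H2AC13 gave 4.22 with DMSO and 2.16 under the combination, and H2AC15/H2BC15 4.69 and 1.64. H3C11/H4C13 had 4.69 with DMSO and 4.83 with OTS186935, and H2AC20/H2AC21 3.99 with DMSO alone. Histone genes outside pairs had peaks at 35.1% of 74 windows with DMSO and 25.7% with OTS186935. With doxorubicin their share was 21.6%, and in the combination list 23%. The histone pairs were above them with DMSO and below them under each treatment, on few windows. The intervals of the pairs were 3.05 to 36.3 with OTS186935, 0.12 to 23.8 with doxorubicin and 5.45 to 41.9 under the combination. In each list the interval held the share outside pairs, so no difference was detectable.

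Genes for the mitochondrial ribosome and respiratory chain lay in 76 paired windows, 40 of them head-to-head. Peaks were found at 15 with DMSO, 19.7% (11.5 to 30.5), and 7 with OTS186935, 9.21% (3.78 to 18.1). There was 1 with doxorubicin, 1.32% (0.0333 to 7.11), and 2 under the combination, 2.63% (0.32 to 9.18). The DMSO share was that of all paired windows (19.6%), and theirs under the treatments were 11.8%, 7.22% and 4.75%. Other ends of these mitochondrial genes had peaks at 11.4%, 5.69%, 3.91% and 3.2% of 281 windows in the 4 libraries. At other ends of all coding genes the shares were 17.5%, 12.4%, 9.13% and 6.12%. TSSK6/NDUFA13, with a complex I subunit gene, had 7.07 with DMSO, 3.22 with OTS186935 and 4.16 under the combination, from summits 845 to 1526 bp from the gap centre on the TSSK6 side. MRPS27/PTCD2 (3.7), EMC8/COX4I1 (3.7) and LRRC41/UQCRH (2.88) had a peak with DMSO alone.

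Genes of cytosolic ribosomal proteins had peaks at 5 of 31 paired windows with DMSO, 4 with OTS186935, 2 with doxorubicin and 0 under the combination, where 0 of 31 allows a share of up to 11.2%. The first 3 shares, 16.1%, 12.9% and 6.45%, lay near the 19.6%, 11.8% and 7.22% of all paired windows. RPL36AL/MGAT2 gave 6.31 with DMSO, 2.87 with OTS186935 and 5.84 with doxorubicin, while RPS18/B3GALT4 (5.31 and 2.87) and RPL12/LRSAM1 (5.05 and 3.52) had peaks with DMSO and OTS186935. Zinc finger genes lay in 50 paired windows, with peaks at 9 with DMSO, 7 with OTS186935, 8 with doxorubicin and 8 under the combination. That is 16% (7.17 to 29.1) both with doxorubicin and with the combination, where paired windows in all had 7.22% and 4.75%. With DMSO and OTS186935 it is 18% and 14%, against 19.6% and 11.8%. Other ends of zinc finger genes had peaks at 15.6%, 10.6%, 6.93% and 5.39% of 1039 windows in the 4 libraries. ZNF214/NLRP14 had 4.66 with DMSO, 7.37 with OTS186935 and 3.9 under the combination. ITGAL/ZNF768 gave 4.87, 3.23, 2.78 and 2.92 in the 4 libraries.

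Paired windows of the other lists were too few to set against the 19.6% of all paired windows with a DMSO peak. Proteasome genes had peaks at 2 of 13 with DMSO, the stronger being PSMA1/PDE3B (3.39). The tRNA synthetase genes had 2 of 15, DND1/HARS1 and EARS2/UBFD1 (4.5 with DMSO alone), and olfactory receptor genes 2 of 6, OR11A1/OR2H1 (2.75) and NLRP3/OR2B11 (1.15). Protocadherin genes had 0 of 2, and keratin-associated protein genes formed 0 pairs of this kind.

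Of 14 well-known bidirectional pairs looked up, 10 met the rule, and 3 of these had a peak in some list. Of all head-to-head windows 29.5% had one, and 10 pairs are too few to tell whether their share differs from it. SURF1/SURF2 and PRKDC/MCM4 are among the pairs without a strand for at least 1 gene. HADHA/HADHB, the subunits of the mitochondrial trifunctional protein, had a DMSO peak of −log10 q 1.48, HSPD1/HSPE1, the mitochondrial chaperonins, a peak of 2.87 with OTS186935, and TAP1/PSMB9, of antigen processing, peaks of 2.76 with OTS186935 and 2.01 under the combination. With doxorubicin 0 of 10 had a peak, which allows a share of up to 30.8%. SURF1/SURF2, COL4A1/COL4A2, NPAT/ATM, PRKDC/MCM4, GART/SON, SARS2/MRPS12 and TK1/AFMID had none in any list.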

How the data were processed

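Peak lists of 4 SK-UT1 γH2AX ChIP-seq libraries were used. MACS2 2.2.7.1, Bowtie2 2.4.2, bedtools 2.30.0, Picard 2.25.3 and the build hg38 are listed in the submitters' processing notes, without roles. Settings, and whether an input served as control, are not stated in those notes or the labels. The deposited rows hold positions, a fold enrichment (a ratio to local background), −log10 p, −log10 q and a score, all values of the authors.

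Coding genes (18973) came from the RefSeq table of GRCh38.p14; 153 with coordinates on other sequences were left out. Strand came from the RefSeq promoter table, which matched 15101 genes. A window was called when a row overlapped it by at least 1 bp, and rows of different lists in a window need not overlap each other. Summit fragments were solved from fold and −log10 p, as a whole pileup with a Poisson p, within 0.002; 66, 84, 24 and 42 of 5901, 4174, 3034 and 2035 rows had a second solution. On rows simulated with the same formula 100% of pileups were recovered. This checks the solving, and not whether the authors' values follow that formula. Window counts differed from bedtools 2.31.1 at 0 windows. Python 3.11.15 with scipy 1.17.1 was used.

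Named pairs were the 5 highest by −log10 q per library, the 8 strongest in all 4 lists, the 5 strongest per pattern and up to 4 per gene list; not all are named, and some are not reported here. The gaps of SLC1A6/TEKTL1 and the last 4 pairs shown were chosen after their values were seen. Pairs, lists and alternatives were chosen with earlier results of these data known.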

Additional observations from a re-analysis of the deposited data

How the results depend on the processing

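Across 13 alternatives the head-to-head share stayed below that of other 5′ ends in all 4 libraries, with ratios of 0.578 to 0.958 for DMSO, 0.54 to 0.674 for OTS186935, 0.409 to 0.671 for doxorubicin and 0.362 to 0.544 for the combination; these alternatives were applied to that split after the data had been seen. The DMSO ratio of head-to-head windows moved to 0.578 with peaks of −log10 q 5 or more and 0.662 with lists of equal length, and the doxorubicin ratio to 0.409 with peaks of 5 or more. The ratio of all paired to other windows reversed for DMSO to 0.806 with peaks of 5 or more, 0.885 with lists of equal length and 0.987 with windows of 1000 bp, and moved to 1.02 with flanks of 250 bp and 1.24 with gaps up to 300 bp. For OTS186935 it moved to 0.608 with peaks of 5 or more, 0.79 with equal lists and 0.834 with windows of 1000 bp. With peaks of 5 or more it was 0.578 for doxorubicin and 0.298 for the combination, the latter on 3 windows. The share of DMSO windows that also had an OTS186935 peak was 35% with flanks of 250 bp, 45.5% with flanks of 1000 bp, 34.4% when the summit had to lie in the window and 21.1% with peaks of 5 or more. For doxorubicin it was 9.21% with peaks of 5 or more and 38.1% with equal lists, and for the combination 0% (0 of 76, which allows up to 4.74%) and 37.3%. Stricter limits leave fewer peaks by construction; the cause of the other shifts was not tested. The remaining 116 of 137 values stayed within the counting interval of the reported value. No paired analysis was possible because each condition had 1 library. Without replicates, differences between libraries cannot be told apart from differences between conditions, and summits of 3 to 38 fragments limit what a missing peak shows.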
